A study of Mus musculus with 4 samples.

Results

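The genes described here encode the coats that bud vesicles between the endoplasmic reticulum (ER) and the Golgi apparatus and the membrane receptors that load cargo into them. There are 34 of them, taken by symbol from 55471 genes listed: 21 genes of cytosolic coats with their GTPases and scaffold, and 13 genes of membrane cargo receptors. They were measured by RNA-seq in 4 mouse brain libraries that the sample titles give as astrocytes. The treatment cuprizone had biological replicates 1 and 2, and likewise mock, all labelled 3 weeks and batch 1. Mice of both groups were GFAP-Cre+/- Rpl22HA/wt: Cre under the GFAP promoter switches on an HA tag on 1 allele of the ribosomal protein gene Rpl22, so that ribosomes, with the RNA they carry, can be immunoprecipitated from cells that have expressed Cre. Per the text on the series' design, males aged 8 to 9 weeks ate chow with 0.2% cuprizone, a copper chelator that kills oligodendrocytes and so causes loss of myelin, controls of the same age ate normal chow, and the corpus callosum was dissected at 5, 5.5 and 7 weeks. The labelled 3 weeks is none of these, a mismatch that these sources do not settle. The tag stays in cells that expressed Cre at any earlier stage. The labels do not say whether a library came from 1 animal or several, so each p-value speaks only of the spread among these 4 libraries.

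Secretory and membrane proteins leave the ER in vesicles made by the COPII coat. The GTPase Sar1 recruits an inner layer of Sec23 and Sec24, of which Sec24 holds the cargo, and an outer cage of Sec13 and Sec31 bends the membrane, on sites organised by Sec16. The COPI coat, a complex of 7 kinds of subunit recruited by the GTPase Arf1, carries escaped ER proteins and recycled receptors back from the Golgi. Soluble cargo cannot touch a cytosolic coat, so it is held by receptors that span the membrane: the p24 proteins (Tmed genes), the KDEL receptors that retrieve ER chaperones, the lectins Lman1 and Lman2, and Surf4. Astrocytes secrete lipoproteins and matrix proteins through this route.

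Library totals ran from 21209517 to 23822620 counts. Gfap, whose promoter drives Cre, stood at 385 and 451 CPM (counts scaled to a library total of 1000000) with cuprizone and at 963 and 870 with mock, a log2 fold of -1.20 (SE 0.15, edgeR adjusted p = 0.0838, DESeq2 adjusted p = 1.93e-10, limma-voom adjusted p = 0.023, edgeR with bias-adjusted dispersions 0.0289), and Rpl22 at 42.2 and 27.4 against 40.6 and 40.1, a log2 fold of -0.29 (SE 0.28). Counts for whole genes do not separate the tagged allele. All 10 astrocyte markers had counts in every library, and their summed CPM was 5295 and 5696 in cuprizone against 8992 and 8582 in mock libraries; all 10 log2 folds were negative, with a median of -0.63. Neuron markers summed to 13630 and 13590 against 11900 and 12320 CPM, and oligodendrocyte markers to 9769 and 12930 against 12510 and 14490. Snap25 made up most of the neuron sum, at 9900 and 10010 against 8292 and 8297 CPM. Of the 9 neuron markers 5 had positive and 4 negative folds, with a median of 0.06. Of the 8 oligodendrocyte markers 2 had positive and 6 negative folds, with a median of -0.30. Markers of oligodendrocyte precursors summed to 116.0 to 124 against 155.0 to 174 CPM, of microglia to 17.3 to 20.1 against 26.9 to 38.7, of pericytes and fibroblasts to 16.2 to 16.4 against 27.6 to 53.0, of ependymal cells to 28.9 to 37.9 against 22.1 to 39.5, and of endothelial cells to 0.137 to 2.98 against 0.452 to 2.36. The microglial genes Cx3cr1 and Aif1 were at 0 in both cuprizone libraries, and the endothelial gene Cdh5 in all 4. Genes of this route work in every cell type, so a lower share of a cell type and less of an RNA per cell cannot be told apart. The part of these markers in the results was not tested. The counts come from immunoprecipitated RNA, with no input library among the 4. They also depend on how well tagged ribosomes were recovered, which was not tested.

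The median folds of the receptors and of the coats lay on opposite sides of 0. All 12 receptor genes that could be tested had lower fitted levels in the cuprizone libraries, with log2 folds from -0.92 to -0.27 and a median of -0.52, while 14 of the 21 coat genes had higher fitted levels, with folds over the 21 from -0.44 to 0.96 and a median of 0.43. The coat median rested more on single libraries: it was 0.17 when cuprizone replicate 2 was left out and 0.16 when mock replicate 1 was. Over all 15816 genes tested the median was 0.00, and negative folds made up 49.9%. No member passed the edgeR quasi-likelihood test with Benjamini-Hochberg adjustment over all genes; the smallest adjusted p was 0.129, for Tmed9. That test called 0.0506% of all genes lower and 0.0316% higher. At an unadjusted p under 0.05, edgeR had 8 of 12 receptors lower, where 7.04% of all genes were, and 6 of 21 coats higher, where 5.73% were. DESeq2 with adjustment called 3 receptors lower (Tmed3, Tmed9 and Lman2) and 2 coats higher (Sec23b and Copg2), against 2.88% and 1.68% of all genes, while limma-voom and edgeR with bias-adjusted dispersions called 0 of either; limma-voom called 0.24% of all genes lower and 0.0569% higher, and the bias-adjusted fit 0.291% and 0.0695%. The 34th gene, Kdelr3, had 0 counts in each library, which allows up to 0.126 to 0.141 CPM (3 counts, counting error only), and was the only member not tested.

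**Figure D1:**
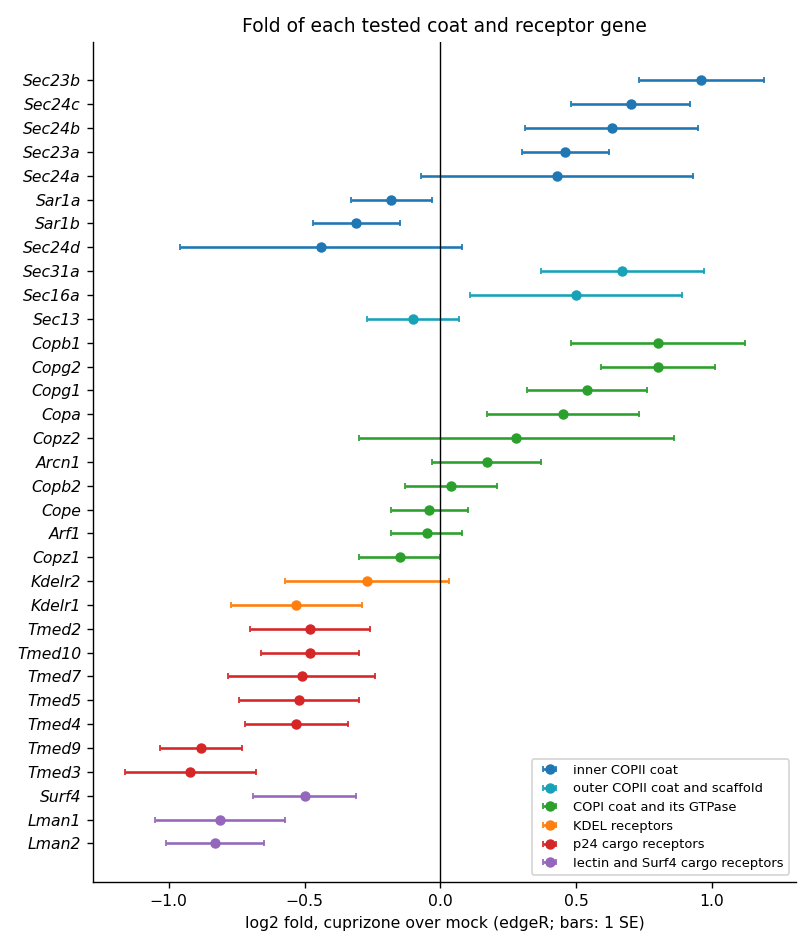
Log2 fold of cuprizone over mock (horizontal axis, edgeR fit of 2 against 2 libraries, bars 1 SE) for the 33 tested genes, coloured by role. The 12 receptor genes at the bottom all lie left of 0, from -0.92 to -0.27, and the coat genes spread from -0.44 to 0.96.

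In 11 of the 12 tested receptors both cuprizone libraries lay below both mock libraries, a pattern that 18.9% of all tested genes showed. In 10 of 21 coats both cuprizone libraries lay above both mock libraries, against 25.7% of all genes, and in 2 coats, Sar1a and Sar1b, they lay below. The summed CPM of the receptors was 804 and 791 in cuprizone and 1157 and 1215 in mock libraries. That of the coats was 3003 and 3296 in cuprizone and 2769 and 2753 in mock libraries. The sum over all members was 3947 CPM ± 199 (SD, n = 2) with cuprizone and 3947 ± 30.4 (SD, n = 2) with mock, so the totals of the groups did not differ beyond their spread.

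**Figure D2:**
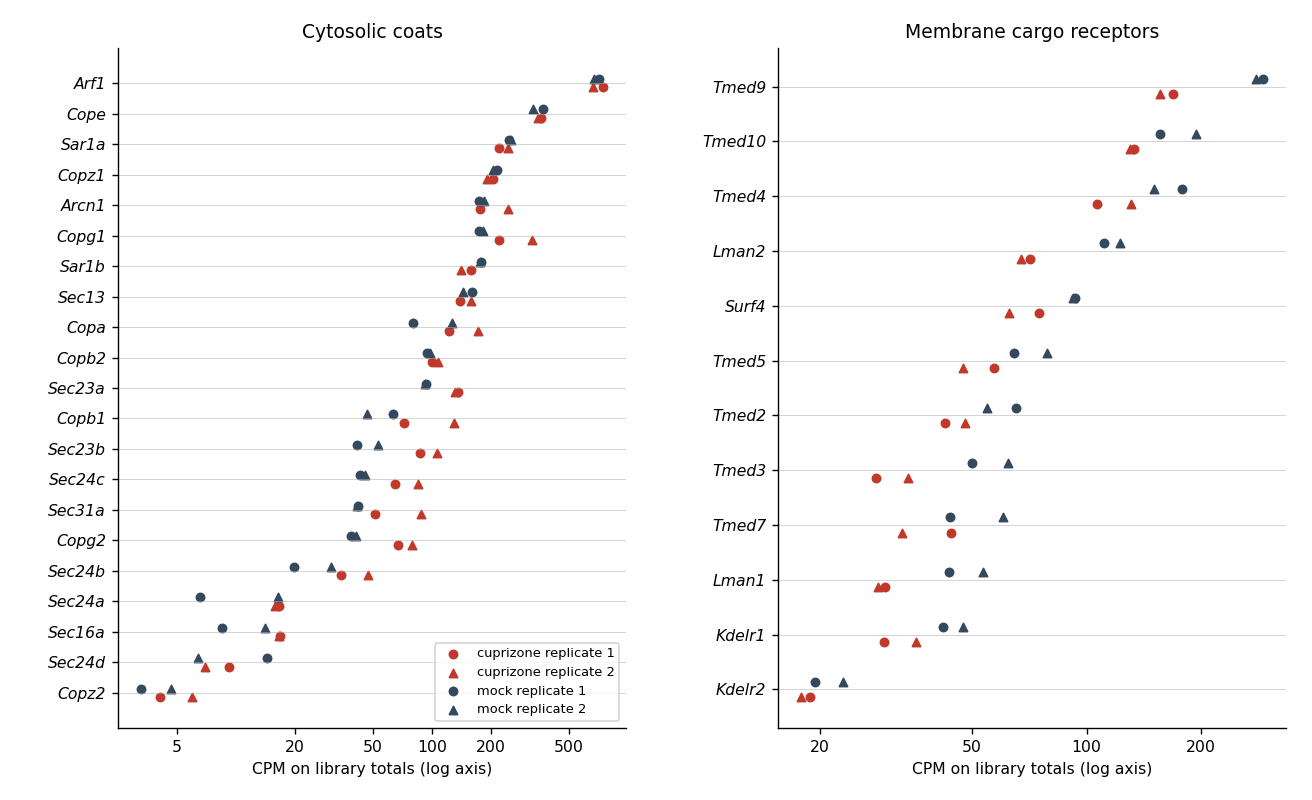
CPM on library totals (log axis) of each coat gene (left) and each receptor gene with counts (right), with 1 point per library, red for cuprizone and dark for mock, circles for replicate 1 and triangles for replicate 2. In the right panel the red points lie left of the dark ones in every gene but Tmed7, where cuprizone replicate 1 (44.1 CPM) and mock replicate 1 (43.9 CPM) meet.

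Among the p24 proteins, which travel in complexes between ER and Golgi and bind both coats with their short cytosolic tails, Tmed9 was the most abundant receptor gene. It stood at 169 and 156 CPM with cuprizone and at 291 and 278 with mock. The groups were far apart and each pair lay close together, with a log2 fold of -0.88 (SE 0.15, edgeR adjusted p = 0.129). DESeq2 gave Tmed9 an adjusted p of 9.44e-05, and over the alternatives that p ran from 9.44e-05 to 0.41. Tmed3, another p24 protein, stood at 28.0 and 34 CPM against 50.1 and 62.0, a log2 fold of -0.92 (SE 0.24, edgeR adjusted p = 0.233), the lowest fold of any member. Both cuprizone values of Tmed3 lay below both mock values.

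Tmed10, with Tmed2 a core partner of most p24 complexes, stood at 133 and 130.0 CPM in cuprizone and 156 and 194 in mock libraries. Its log2 fold was -0.48 (SE 0.18, edgeR adjusted p = 0.337), and a processed pseudogene, Tmed10-ps, had counts of its own, so reads may have been split between the copies. Tmed4 stood at 106 and 131 against 178 and 150.0 CPM, a log2 fold of -0.53 (SE 0.19, edgeR adjusted p = 0.33). In both genes the groups did not overlap, by a margin narrower than the spread within the wider pair. Tmed2, Tmed5 and Tmed7 had log2 folds of -0.48, -0.52 and -0.51. Without mock replicate 2 the fold was -0.29 for Tmed10 and -0.24 for Tmed7, and without cuprizone replicate 2 that of Tmed7 was -0.32. So 5 of the 7 p24 genes lay between -0.53 and -0.48, and Tmed3 and Tmed9 lay lower. The summed CPM of the 7 was 580.0 and 579 in cuprizone and 848 and 877 in mock libraries.

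The lectins Lman1 and Lman2 bind sugar chains of glycoproteins, Lman1 on the way out of the ER. Lman2 stood at 70.9 and 67.2 CPM in cuprizone and at 111 and 122 in mock libraries. The log2 fold was -0.83 (SE 0.18, edgeR adjusted p = 0.18), and the groups were clearly apart. Lman1 stood at 29.6 and 28.3 against 43.4 and 53.4 CPM, a log2 fold of -0.81 (SE 0.24, edgeR adjusted p = 0.26). Surf4, a receptor for soluble cargo that includes lipoproteins, stood at 74.9 and 62.5 against 92.9 and 92.0 CPM. Its log2 fold was -0.50 (SE 0.19, edgeR adjusted p = 0.35). None of these 3 genes overlapped between the groups.

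The KDEL receptors bind the tail sequence of escaped ER chaperones and return them through COPI vesicles. Kdelr1 stood at 29.4 and 35.6 CPM with cuprizone and 41.9 and 47.3 with mock, a log2 fold of -0.53 (SE 0.24, edgeR adjusted p = 0.441). Kdelr2 stood at 18.8 and 17.8 against 19.3 and 22.9 CPM, a log2 fold of -0.27 (SE 0.30), the one closest to 0 among the receptors, and -0.12 without mock replicate 2. Kdelr3 had no counts; its exons overlap those of Ddx17 (mean 66.3 CPM) on the opposite strand, and how the counting treated reads shared by overlapping genes is not given in the sources used here, so its 0 does not show that the RNA was absent.

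In the inner COPII coat the Sec23 and Sec24 genes other than Sec24d had positive folds and both Sar1 GTPase genes had negative ones, none past the adjusted edgeR threshold. Sec23b, which with Sec23a encodes the subunit that stimulates Sar1, stood at 86.8 and 107 CPM in cuprizone and 41.3 and 53.2 in mock libraries. That is the highest fold among the members, 0.96 (SE 0.23, edgeR adjusted p = 0.197), and the groups did not overlap. Sec23a stood at 136 and 132 against 93.6 and 92.1 CPM, a log2 fold of 0.46 (SE 0.16, edgeR adjusted p = 0.326), with little spread inside either pair. The ratio of Sec23b to Sec23a counts was 0.64 and 0.811 in cuprizone against 0.441 and 0.578 in mock libraries.

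Of the 4 Sec24 genes, which bind the sorting signals of cargo, Sec24c was the most abundant, at 65.1 and 85.3 CPM in cuprizone and 42.7 and 45.3 in mock libraries. Its log2 fold was 0.70 (SE 0.22, edgeR adjusted p = 0.285). Sec24b had a log2 fold of 0.63 (SE 0.32), also with no overlap between the groups; leaving out cuprizone replicate 2 gave 0.37, and omitting mock replicate 1 or 2 gave 0.35 or 0.99. Sec24a (0.43, SE 0.50) and Sec24d (-0.44, SE 0.52) overlapped, because the mock libraries themselves differed, at 6.56 and 16.4 CPM for Sec24a and 14.5 and 6.46 for Sec24d. Sar1a, the inner coat gene with the highest CPM, stood at 219 and 243 CPM against 246 and 252, and its paralog Sar1b at 159 and 140 against 177 and 176. Their log2 folds were -0.18 (SE 0.15, edgeR adjusted p = 0.71) and -0.31 (SE 0.16, edgeR adjusted p = 0.487).

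In the outer COPII coat the large subunit had a positive fold, while that of the small subunit was smaller in size than its SE. Sec31a, the rod of the cage, stood at 51.2 and 87.5 CPM with cuprizone and at 41.8 and 41.7 with mock, a log2 fold of 0.67 (SE 0.30, edgeR adjusted p = 0.425). The higher level rested mostly on cuprizone replicate 2: without that library the log2 fold was 0.21. Sec13, the small partner of Sec31 that also serves in nuclear pores, stood at 138 and 159 against 160 and 144 CPM, a log2 fold of -0.10 (SE 0.17, edgeR adjusted p = 0.9). Sec16a had 0.50 (SE 0.39), which was 0.18 without mock replicate 1 and 0.93 without mock replicate 2.

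In the COPI coat, Copg2, a gamma subunit, had the highest log2 fold together with Copb1, at 0.80 each. Copg2 stood at 67.2 and 78.8 CPM in cuprizone and 38.6 and 41.2 in mock libraries (SE 0.21, edgeR adjusted p = 0.231), with no overlap. Its paralog Copg1 stood at 219 and 323 against 174 and 181 CPM, a log2 fold of 0.54 (SE 0.22, edgeR adjusted p = 0.377). Copb1, the beta subunit, stood at 71.8 and 129 against 63.2 and 46.8 CPM (SE 0.32). For Copg1 and Copb1, as for Sec31a, cuprizone replicate 2 was the highest library, and without it the log2 folds were 0.22 and 0.30.

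The other COPI members lay closer to 0. Copa, the alpha subunit, had a log2 fold of 0.45 (SE 0.28), and its groups overlapped. Leaving out cuprizone replicate 2 gave Copa a fold of 0.17, leaving out mock replicate 1 gave 0.16, and leaving out mock replicate 2 gave 0.83. Arcn1 (delta), Copb2 (beta prime), Cope (epsilon), Copz1 and Copz2 (zeta) had log2 folds of 0.17, 0.04, -0.04, -0.15 and 0.28. Arf1, the GTPase and the most abundant member, stood at 742 and 659 CPM against 709 and 669, a log2 fold of -0.05 (SE 0.13, edgeR adjusted p = 0.955). The sign of Cope and Arf1 turned with library totals as the only scaling, to 0.03 and 0.02. Fitted folds of the COPI subunits thus ran from -0.15 for Copz1 to 0.80 for Copg2 and Copb1. Differences between subunits were not tested.

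Levels can be set beside each other between genes only per length. Counts per kilobase of the principal transcript, scaled to the same total over all coding genes in each library, put Arf1 first in the mock libraries at 735 ± 7.98 (SD, n = 2), then Cope at 565 ± 28.8 and Tmed9 at 425 ± 0.727. Sar1b (313 ± 8.50), Copz1 (266 ± 1.65), Tmed10 (251 ± 46.3) and Sec13 (238 ± 10.7) followed, of which Tmed10 could not be told from either neighbour by its spread. Within the COPI complex the same scale ran from 565 for Cope through 93.2 ± 6.60 for Arcn1 and 91.3 ± 5.40 for Copg1 down to 34.8 ± 6.31 for Copb1 and 9.14 ± 2.48 for Copz2. In the cuprizone libraries Tmed9 stood at 256 ± 7.10 on this scale, below Sar1b (278 ± 17.2). There Tmed9 could not be told from Copz1 (265 ± 6.12), as their libraries overlapped. The most abundant coat genes in mock libraries were thus small ones, and the large coat subunits lay below these. Not all small ones were abundant: Copz2 lay low, and Arcn1 could not be told from the larger Copg1 by its spread.

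Within a library, the ratio of summed receptor CPM to summed coat CPM needs no scaling between libraries. It was 0.268 and 0.24 with cuprizone and 0.418 and 0.441 with mock. The means were 0.254 ± 0.0197 (SD, n = 2) and 0.429 ± 0.0166 (SD, n = 2), so cuprizone libraries held 0.591 times the mock ratio. The difference of the means was larger than the spread inside either pair; the genes were chosen with results of these data known, so no p-value is given. With the GTPases and Sec16a left out of the coats the factor was 0.54, and with each gene weighted equally on the log2 scale it was 0.554. Leaving out 1 library at a time gave 0.558 to 0.623, and leaving out both libraries of replicate 2 gave 0.641.

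**Figure D3:**
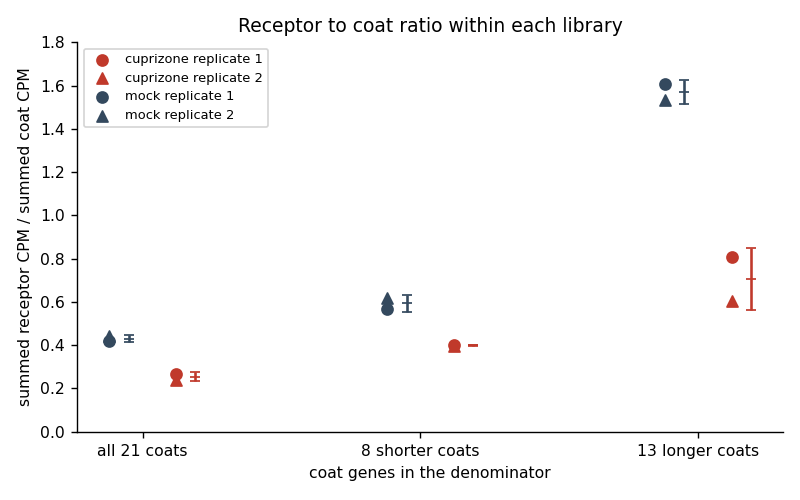
Ratio of summed receptor CPM to summed coat CPM within each library, with 1 point per library and the mean and SD of each pair beside it, for all 21 coat genes, the 8 coat genes with a coding length up to that of the longest tested receptor, and the 13 longer ones. Cuprizone libraries lie below mock libraries in each comparison, at 0.399 against 0.592 on average for the 8 shorter coats and at 0.706 against 1.57 for the 13 longer ones.

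Coat genes differed among themselves by length. Receptors are small proteins, with tested genes between 603 and 1551 coding bases. The 8 coat genes in that range or below it (Sar1a, Sar1b, Sec13, Cope, Copz1, Copz2, Arcn1 and Arf1) had a median log2 fold of -0.07, from -0.31 to 0.28, and summed to 2006 and 1990 CPM in cuprizone against 2050 and 1960 in mock libraries. The 13 longer ones, from 2295 coding bases up, had a median of 0.54, with 12 positive folds, and summed to 996 and 1307 against 719 and 793 CPM. All 6 coats with an unadjusted edgeR p under 0.05 were among these 13. Spearman's rho between coding length and log2 fold was 0.56 across the 21 coats, -0.55 across the 12 receptors and 0.21 across 13717 coding genes tested; genes of 1 library share its depth and base composition, so these are descriptions.

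Over all tested genes the median log2 fold went from -0.17 in genes of up to 600 coding bases and -0.11 between 601 and 900 to 0.19 between 2401 and 3600 and 0.29 above that. The 10 receptors between 601 and 900 coding bases had a median of -0.51, below the median of their length class, and the 7 coats between 2401 and 3600 had 0.54, above theirs. Against only the 8 shorter coats, the receptor to coat ratio was 0.401 and 0.397 in cuprizone and 0.564 and 0.62 in mock libraries, a factor of 0.674. That comparison was added after the folds of long and short coats had been seen. The part of length in the difference between coats and receptors was not tested.

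**Figure D4:**
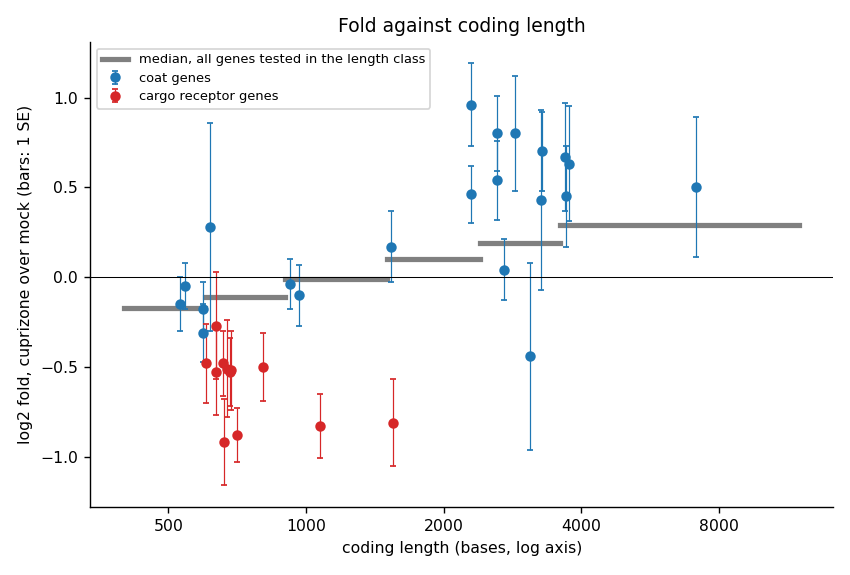
Log2 fold of cuprizone over mock (vertical axis, bars 1 SE) against coding length in bases (log axis) for coat genes (blue) and receptor genes (red), with grey lines for the median over all tested genes in each length class. Grey lines climb from -0.17 to 0.29, the 8 short coats lie near 0, most long coats lie above the lines, and the 12 receptors lie below them.

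Promoters were searched for a motif known from secretory pathway genes. The 8 letters TGACGTGG, or CCACGTCA on the other strand, are the core of an element bound by XBP1 and related factors of the ER stress response. In RefSeq promoters on GRCm38.p6, 250 bases before to 50 after each start, they were present for 5 of 20 coat genes (Arf1, Copb1, Copb2, Sec23a and Sec24d, 25%) and for 1 of 9 receptor genes (Kdelr3, which had no counts), against 0.714% of 27025 genes. Arcn1, Kdelr2, Tmed2, Tmed7 and Lman1 had no entry. Stretches of 90 bases before to 30 after the start are shown 5′ to 3′ on the gene's strand for the 5 coat genes with the motif (capitals), and for Sec23b, Tmed9 and Lman2, which hold none and include the highest coat fold and the lowest receptor p-values.
Copb1 (chr7:114254651-114254770, minus strand): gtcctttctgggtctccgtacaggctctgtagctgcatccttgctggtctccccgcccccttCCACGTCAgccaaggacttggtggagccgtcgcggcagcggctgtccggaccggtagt
Copb2 (chr9:98563641-98563760, plus strand): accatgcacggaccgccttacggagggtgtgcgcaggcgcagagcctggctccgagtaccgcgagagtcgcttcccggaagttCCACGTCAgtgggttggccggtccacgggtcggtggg
Sec23a (chr12:59011988-59012107, minus strand): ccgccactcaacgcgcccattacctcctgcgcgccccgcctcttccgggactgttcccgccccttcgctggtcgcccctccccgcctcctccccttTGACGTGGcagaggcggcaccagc
Sec24d (chr3:123267406-123267525, plus strand): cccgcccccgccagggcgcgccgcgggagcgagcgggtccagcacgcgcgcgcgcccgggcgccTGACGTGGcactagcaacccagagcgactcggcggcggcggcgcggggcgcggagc
Arf1 (chr11:59228238-59228357, minus strand): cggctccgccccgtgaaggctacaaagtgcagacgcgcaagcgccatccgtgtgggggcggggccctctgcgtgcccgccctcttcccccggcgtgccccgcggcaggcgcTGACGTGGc
Sec23b (chr2:144556139-144556258, plus strand): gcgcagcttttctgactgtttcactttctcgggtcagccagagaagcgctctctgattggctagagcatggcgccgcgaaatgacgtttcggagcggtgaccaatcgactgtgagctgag
Tmed9 (chr13:55593045-55593164, plus strand): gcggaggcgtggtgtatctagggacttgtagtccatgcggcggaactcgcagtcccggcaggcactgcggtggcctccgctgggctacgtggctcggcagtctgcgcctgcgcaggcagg
Lman2 (chr13:55362754-55362873, minus strand): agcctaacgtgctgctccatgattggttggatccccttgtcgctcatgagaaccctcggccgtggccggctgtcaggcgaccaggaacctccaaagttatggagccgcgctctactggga

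In the 5 windows the motif began 28 bases before the transcript start in Copb1, 26 before it in Sec24d and 7 in Copb2. It began at base 7 of the transcript in Sec23a and base 22 in Arf1. From a second Arf1 start site among the promoters searched, the same motif lay at position -84. The log2 folds of these 5 genes were 0.80, -0.44, 0.04, 0.46 and -0.05, on both sides of 0. Sec23b, with the highest fold, had none in its window. A match is only a match of letters, and nothing follows from its absence in a window of this size.

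The wider route gave a mixed picture. Of 21 COPII assembly factors and cargo adaptors, several of which span the ER membrane, 17 had negative folds, with a median of -0.43; edgeR with adjustment called 0, 8 were lower and 1 higher at an unadjusted p under 0.05, against 7.04% and 5.73% of all genes, and DESeq2 called 2 lower, against 2.88%. The 1 higher gene is close to the share over all genes. In 12 of the 21 both cuprizone libraries lay below both mock libraries, against 18.9% of all genes. Bcap29, an ER membrane protein that handles membrane cargo, stood at 53.7 and 42.9 CPM with cuprizone and 98.3 and 88.5 with mock, a log2 fold of -1.02 (SE 0.21, edgeR adjusted p = 0.168). Ergic3, a membrane protein that cycles between ER and Golgi, stood at 77.3 and 100.2 against 138 and 160 CPM, a log2 fold of -0.81 (SE 0.20, edgeR adjusted p = 0.221).

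Tethers, Rab GTPases and SNAREs, which dock and fuse the vesicles, were centred near 0. Of 34 tested, 15 had negative and 19 positive folds, with a median of 0.05; edgeR with adjustment called 0 and DESeq2 called 0, and 2 were lower and 2 higher at an unadjusted p under 0.05, near the shares of 7.04% and 5.73% over all genes. In 15 of the 34 both cuprizone libraries lay above both mock libraries and in 3 below, against 25.7% and 18.9% of all genes. Scfd1, which assists SNARE pairing at the Golgi, had a log2 fold of 0.56 (SE 0.19, edgeR adjusted p = 0.31), and Use1, a SNARE for return to the ER, -0.52 (SE 0.19, edgeR adjusted p = 0.338). The medians were thus -0.52 for the receptors, -0.43 for the assembly factors and adaptors and 0.05 for the docking genes. That of all 21 coats was 0.43, with 0.54 for the 13 longer and -0.07 for the 8 shorter ones. No gene of these lists was called at the adjusted edgeR threshold.

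The 2 members of smallest p on each side of 0 lie, on GRCm38 with GENCODE M21 records, at chr13:55573732-55597697 (Tmed9, ENSMUSG00000058569), chr13:55343833-55362783 (Lman2, ENSMUSG00000021484), chr2:144556229-144590749 (Sec23b, ENSMUSG00000027429) and chr6:30747554-30896794 (Copg2, ENSMUSG00000025607). Beside Kdelr3, exons of Copa, Copg2, Sec24c, Surf4 and Tmed5 overlap exons of a gene with counts on the opposite strand (Ncstn, Mest, 6230400D17Rik, Surf2 and Mtf2), and the strand setting of the counting is not given in the sources used here, so part of the counts of these 5 genes could belong to the partner.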

How the data were processed

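The deposited values are raw counts by Ensembl gene id, 1 file for each library, with no scaling. FastQC 0.11.9, STAR 2.5.4b and featureCounts 1.6.0 were used with GRCm38 (mm10), per the submitters' processing notes; no annotation release, strand setting or treatment of multi-mapping reads is given in the sources used here. Libraries came from immunoprecipitated RNA with a low-input kit, per the labels. Symbols, coordinates and lengths come from GENCODE M21 (GRCm38), which matched 55230 of 55471 ids, all 34 members among them. CPM was computed on library totals.

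The test was the quasi-likelihood test of edgeR 4.0.16 (R 4.3.3), with filterByExpr, TMM factors, robust glmQLFit and legacy dispersions, 2-sided, with Benjamini-Hochberg adjustment over 15816 genes and a threshold of 0.05. Standard errors are the absolute log2 fold over the square root of F. Alternatives were DESeq2 1.42.0, limma-voom 3.58.1, other scalings, filters and dispersions, a replicate block and leaving out each library. A chi-square over genes with 20 or more counts gave 56.5 per degree of freedom for the cuprizone pair and 35.1 for the mock pair, so neither pair was a repeat of 1 library. The fit was tested on simulated counts. The members, lists and tests were chosen with earlier results of these data known. Full values are given for the 12 members of smallest p, the member of highest CPM in each role, the 2 genes of smallest p in each other list (1 is not reported here), Gfap and Rpl22; others, such as Kdelr2, Sec31a, Copb1 and Sec24b, were added after their values were seen.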

Additional observations from a re-analysis of the deposited data

How the results depend on the processing

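All 12 tested receptor genes kept a negative fold under all 14 alternatives. The receptor median of -0.52 ran from -0.64 to -0.53 with 1 library left out. With library totals only it was -0.45, where the median over all genes was 0.07. The coat median of 0.43 ran from 0.16 (mock replicate 1 left out) and 0.17 (cuprizone replicate 2) to 0.57. The receptor to coat factor of 0.591 was 0.54 without GTPases and Sec16a, 0.554 with equal weights, and, in comparisons added later, 0.674 against shorter coats and 0.641 without both libraries of replicate 2. Over all genes 13 were called; DESeq2 called 720, no filter 191, a mean CPM of at least 1 gave 68, bias-adjusted dispersions 57, limma-voom 47, and leaving out 1 library 5 to 123 (123 without cuprizone replicate 1, 26 without cuprizone replicate 2, and 5 without mock replicate 1 or 2). The cause of these differences was not tested.

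Beyond the DESeq2 calls, Tmed9 passed with no filter, and no other alternative called a member. Cope (0.03) and Arf1 (0.02) changed sign with library totals only. Leaving out 1 library turned the sign of 8 coat folds, none of them called, in ranges of -0.21 to 0.00 for Sec13, -0.08 to 1.26 for Sec24a, -0.88 to 0.26 for Sec24d, -0.03 to 0.09 for Copb2, -0.09 to 0.05 for Cope, -0.03 to 0.57 for Copz2, -0.10 to 0.39 for Arcn1 and -0.13 to 0.03 for Arf1; the turn came without mock replicate 1 for Sec24a, Sec24d and Cope, without cuprizone replicate 1 for Sec13 and without cuprizone replicate 2 for the others. With the replicate block 10 genes were called. Deviations of same-numbered libraries from their group means correlated at -0.0124, which shows no strong shared component. With 2 libraries per group this single value cannot settle whether the numbers pair the libraries.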

Other observations

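Regulators and paralogs outside the list showed further values. Lman2l, the paralog of Lman2, stood at 15.8 and 16.8 CPM with cuprizone and 48.7 and 37.2 with mock, a log2 fold of -1.46 (SE 0.28, edgeR adjusted p = 0.149), lower than any of the 12 tested receptor genes of the list. Among 8 COPI regulators 5 had positive folds, with a median of 0.11. Gbf1, which loads Arf1 with GTP at the Golgi, stood at 48.8 and 84.7 against 41.7 and 35.5 CPM, a log2 fold of 0.72 (SE 0.31, edgeR adjusted p = 0.411). Arf6, an Arf of the cell surface, had 0.82 (SE 0.46, edgeR adjusted p = 0.541). Of 6 factors that switch on secretory pathway genes, 3 had negative and 3 positive folds. Xbp1 stood at 224 and 225 CPM with cuprizone and 177 and 186 with mock, a log2 fold of 0.24 (SE 0.15, edgeR adjusted p = 0.574), and Creb3l1 at 2.34 and 0.798 against 3.03 and 4.10, a log2 fold of -1.26 (SE 0.86, edgeR adjusted p = 0.625). EdgeR and DESeq2 with adjustment called none of these genes, except that DESeq2 called Lman2l lower.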
